A study of Mus musculus with 6 samples.

Results

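The 10 genes described here make and use serine-derived one-carbon units or carry large neutral amino acids into the cell. They were fixed by name: Phgdh, Psat1 and Psph of serine synthesis, Shmt1 and Shmt2, the folate enzymes Mthfd1, Mthfd1l and Mthfd2, and the carrier chains Slc7a5 and Slc3a2. Each of the 10 was matched by its symbol among the 32285 genes of the feature table, and each had UMIs (unique molecular identifiers, counts of captured RNA molecules) in all 4 gene expression libraries. Levels are given as CPM, a gene's UMIs per 1000000 UMIs of the kept cells of a library. The rule that chose the genes names them and sets no limit on a measured value, but earlier results of these data were known.

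De novo serine synthesis starts from the glycolytic intermediate 3-phosphoglycerate. Phosphoglycerate dehydrogenase (Phgdh) oxidises it, phosphoserine aminotransferase (Psat1) adds the amino group and phosphoserine phosphatase (Psph) releases serine. Serine hydroxymethyltransferases, Shmt1 in the cytosol and Shmt2 in mitochondria, move a carbon from serine to tetrahydrofolate and leave glycine. The Mthfd enzymes interconvert the folate-bound carbon, Mthfd2 and Mthfd1l in mitochondria and Mthfd1 in the cytosol, so that it can leave mitochondria as formate and enter purines and thymidylate. Slc7a5 (LAT1) is the light chain and Slc3a2 (CD98, 4F2hc) the heavy chain of a surface exchanger of leucine and other large neutral amino acids, and Slc3a2 also pairs with other light chains and binds integrins. Activated T cells are known to depend on both the exchanger and the one-carbon pathway when they divide.

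CD8 T cells were sorted as CD45+, CD3+, CD8+ and Tomato+ from B16-OVA tumors, a melanoma line that expresses ovalbumin, and from the draining lymph node (LN) 12 days after engraftment. Control mice carried CD8-Cre and Rosa26Tomato, and CD8-IFNγRKO mice carried the same alleles plus IFNgR1 flox/flox, so Cre and the reporter were shared by both genotypes and the receptor chain was lost in Cre-expressing CD8 cells alone. Cells of 3 mice went into each library and there was 1 library per tissue and genotype, without a map from cells to mice. Hence no test between conditions was possible, and every interval below is a 95% interval for counting error only. Kept cells numbered 6641 in control LN, 6731 in CD8-IFNγRKO LN, 7103 in control tumor and 8636 in CD8-IFNγRKO tumor, with 28841136 to 93995655 UMIs in a library. Median UMIs per cell were 4051 and 3863 in the LN libraries, 6308 in control tumor and 9402 in CD8-IFNγRKO tumor. Any pair of libraries shared 51 to 82 cell barcodes, 0.758% to 1.23% of a library's cells.

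Ifngr1, the targeted gene, stood at 182 CPM in control LN, 137 in CD8-IFNγRKO LN, 718 in control tumor and 237 in CD8-IFNγRKO tumor. It was 3.01-fold lower in CD8-IFNγRKO than in control tumor and 1.33-fold lower in the LN. Reads from exons outside the floxed part cannot show the deletion. All 7 T cell and CD8 markers (Cd3d, Cd3e, Cd3g, Trac, Cd8a, Cd8b1, Cd2) were present in every library at a summed 5358 to 8748 CPM, although 3 of them had been required of each cell. The 8 macrophage markers summed to between 3.61 and 19.5 CPM, and the 6 melanoma markers to between 0.200 and 3.40 CPM.

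Promoter sequences are shown for Shmt1, whose tumor level differed most in fold between the genotypes, and for Slc3a2, the member that was lower in CD8-IFNγRKO tumor. Whether these sequences have a part in the levels was not tested. Each run holds the 110 bases before an annotated transcript start in RefSeq, GRCm38.p6, 5′ to 3′ on the gene's strand, which is the minus strand for both. Capitals mark GGGCGG, the GC box read by Sp1-type factors.
Shmt1, chr11:60811266-60811375: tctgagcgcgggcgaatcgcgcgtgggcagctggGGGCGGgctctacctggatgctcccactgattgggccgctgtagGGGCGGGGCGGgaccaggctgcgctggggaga
Slc3a2, chr19:8713898-8714007: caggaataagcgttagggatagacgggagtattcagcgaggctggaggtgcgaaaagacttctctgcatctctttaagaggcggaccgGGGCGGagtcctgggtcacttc
Shmt1 held 3 GC boxes in this stretch, the last pair sharing a base, and Slc3a2 held 1. Windows of 300 bases around the start (250 before, 50 after) were searched on both strands. GGGCGG was found in 6 of 10 member windows, for 6 of the 9 members that had a window: Psat1, Psph, Shmt1, Mthfd1, Mthfd1l and Slc3a2. It was present in 35.7% of all 32851 promoter windows. The letters TGATGCAA (core of the C/EBP-ATF element, 0.895% of windows), TGACGCAA (0.490%), TGACGTCA (the cAMP response element, 1.79%) and CACGTG (the E-box of Myc and related factors, 7.15%) were not in the window of any of these 9 members. For Mthfd2, Slc3a2 and Mthfd1 the window, and for Psat1 the window with the match, lay inside the outer bounds of the gene, at an internal start. For Psph and Mthfd1l the start also lay inside these bounds, while the window reached past them.

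The serine synthesis genes were highest in CD8-IFNγRKO tumor. Phgdh, at chr3:98313171-98339969, had 124 CPM in control LN, 109.5 in CD8-IFNγRKO LN, 128 in control tumor and 201 (198 to 204) in CD8-IFNγRKO tumor. Thus control tumor and control LN could not be told apart for Phgdh, with intervals of 125 to 130.5 and 120.0 to 128 CPM, whereas CD8-IFNγRKO tumor stood above the other libraries. Psat1, at chr19:15905123-15925059, had 28.3 CPM in control LN, 22.8 in CD8-IFNγRKO LN, 63.8 in control tumor and 98.0 in CD8-IFNγRKO tumor. Its 4 intervals were all separate, with both tumor libraries above both LN libraries. Psph, at chr5:129765558-129787443, kept the narrowest spread of the pathway, at 44.3 and 41.8 CPM in the LN and 57.0 and 65.0 CPM in the tumor for control and CD8-IFNγRKO, and its LN intervals overlapped.

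Both hydroxymethyltransferases were higher in CD8-IFNγRKO than in control tumor, yet their tissue patterns were opposite. Shmt1, at chr11:60788897-60811265, was the least abundant member by UMIs, with 10.3 CPM in control LN, 8.77 in CD8-IFNγRKO LN, 12.3 (11.4 to 13.2) in control tumor and 30.1 (29.0 to 31.2) in CD8-IFNγRKO tumor. The 3 lower libraries formed a ladder of neighbours with overlapping intervals and the CD8-IFNγRKO tumor stood alone. Shmt2, at chr10:127517123-127522444, had 89.8 CPM in control LN, 76.6 in CD8-IFNγRKO LN, 33.5 (32.0 to 35.0) in control tumor and 58.6 (57.1 to 60.2) in CD8-IFNγRKO tumor. Shmt2 was the only member with both LN libraries above both tumor libraries, and none of its intervals overlapped.

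Among the folate enzymes, Mthfd1 (chr12:76254406-76319820) had 33.5 CPM in control LN, 35.1 in CD8-IFNγRKO LN, 23.9 in control tumor and 43.1 in CD8-IFNγRKO tumor. Mthfd1l (chr10:3972892-4167081) had 35.1, 32.9, 30.7 and 45.9 CPM in the same order. For both genes the control tumor was the lowest and the CD8-IFNγRKO tumor the highest library, with the LN libraries between them and overlapping each other; for Mthfd1l the control tumor interval of 29.3 to 32.1 CPM also met that of CD8-IFNγRKO LN. Mthfd2 (chr6:83305704-83326011), the mitochondrial dehydrogenase that is usually low in resting adult tissue, had 43.4 CPM in control LN, 28.3 in CD8-IFNγRKO LN, 63.5 in control tumor and 88.7 in CD8-IFNγRKO tumor. Its 4 intervals were separate.

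The chains of the amino acid exchanger did not move together. Slc7a5 (chr8:121881146-121907686) had 45.8 CPM in control LN, 31.6 in CD8-IFNγRKO LN, 29.8 in control tumor and 54.0 (52.5 to 55.5) in CD8-IFNγRKO tumor. Its control tumor and CD8-IFNγRKO LN intervals overlapped. Slc3a2 (chr19:8706882-8723369) had 103 CPM in control LN, 99.2 in CD8-IFNγRKO LN, 168 (164 to 171) in control tumor and 134 (132 to 137) in CD8-IFNγRKO tumor. It was the only member with its highest level in control tumor, and its LN libraries overlapped. Summed over the 10 genes, the level was 557 CPM in control LN, 487 in CD8-IFNγRKO LN, 609.6 in control tumor and 819 in CD8-IFNγRKO tumor.

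**Figure D1:**
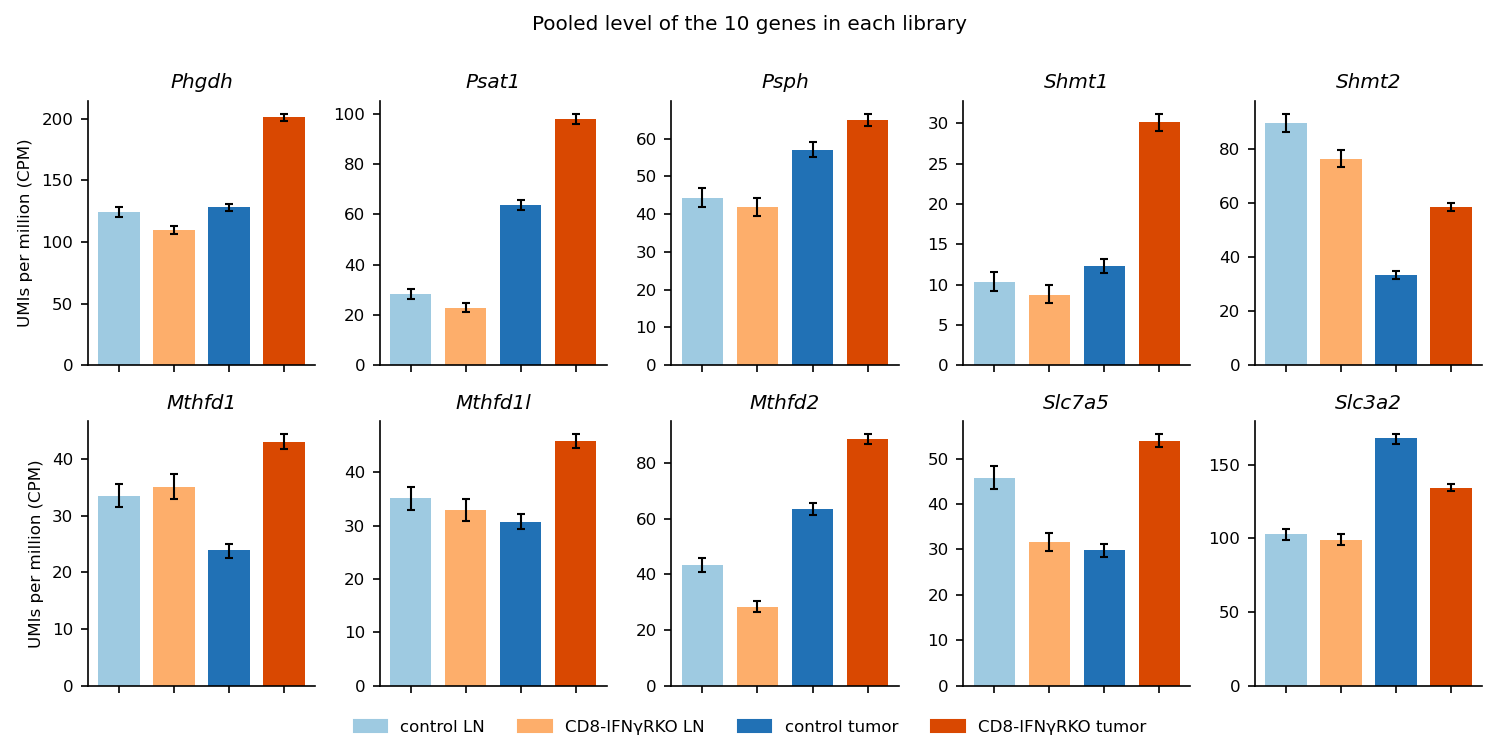
Bars give the CPM of each gene in the 4 libraries (colors) and black lines the 95% Poisson interval. CD8-IFNγRKO tumor is the highest library for every gene but Shmt2, where both LN libraries are higher, and Slc3a2, which peaks in control tumor at 168 CPM.

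To ask what loss of the IFNγ receptor went along with in the tumor, CD8-IFNγRKO and control TILs (tumor-infiltrating lymphocytes) were compared by the log2 ratio of CPM after adding 1 CPM. Of the 10 members, 9 were higher in CD8-IFNγRKO tumor, beside 52.0% of the 8834 genes with a mean of at least 5 CPM. Past a log2 ratio of 0.5 lay 7 of the members, against 7.45% of those genes. No member was past 0.5 in the lower direction, where 5.09% of genes were. The median log2 ratio was 0.63 over the members and 0.01 over all genes tested. Shmt1 had the largest ratio, 1.23 (1.12 to 1.34), or 2.34-fold. Slc7a5 followed at 0.84 (0.76 to 0.91), Mthfd1 at 0.83 (0.74 to 0.91) and Shmt2 at 0.79 (0.72 to 0.86). These 3 could not be separated from each other by their counting intervals. Phgdh at 0.65 (0.61 to 0.69), Psat1 at 0.61 (0.56 to 0.67) and Mthfd1l at 0.56 (0.49 to 0.64) made up the rest of the 7. Mthfd2 at 0.47 (0.42 to 0.53) lay just inside the limit and Psph at 0.19 (0.13 to 0.25) well inside it. Slc3a2 was the exception, at -0.32 (-0.35 to -0.28), or 1.24-fold lower. Without the cells of the 3 largest clones of each tumor library, 7 members were still past 0.5 higher, against 6.55% of genes. The median over the 10 members was then 0.60.

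In pooled values, fewer cells of one kind and less RNA per cell cannot be told apart, and the tumor libraries differed in their share of dividing cells. Cells with 6 or more UMIs of 20 proliferation genes, after thinning each cell to 1600 UMIs, made up 14.2% of control and 29.3% of CD8-IFNγRKO TILs, while cells with none made up 43.1% and 20.5%. With the same weight of each proliferation class in both libraries, the median of the members was 0.40. Then 4 members were past 0.5 higher, against 3.46% of 8840 genes. Without this weighting 7 members were, against 7.45% of genes. Macrophage markers went the other way, at 19.5 CPM in control and 13.2 CPM in CD8-IFNγRKO tumor. Without cells with 3 or more UMIs of macrophage genes 7 members were past 0.5 higher, against 7.40% of genes. The melanoma markers summed to 3.40 and 2.37 CPM, and their part in the result was not tested.

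In the LN, 9 of the 10 members were lower in CD8-IFNγRKO than in control cells, though by less. Of the 8700 genes tested, 60.3% were higher. Mthfd2 at -0.60 (-0.72 to -0.47), or 1.51-fold lower, and Slc7a5 at -0.52 (-0.64 to -0.40), or 1.44-fold lower, were past 0.5 in the lower direction, where 0.460% of 8700 genes were. No member was past 0.5 in the higher direction, as for all but 0.276% of genes. The members had a median of -0.19 and all genes tested a median of 0.03. Psat1 at -0.30 (-0.44 to -0.15), Shmt2 at -0.23 (-0.31 to -0.15) and Phgdh at -0.18 (-0.25 to -0.11) also had intervals below 0. For Shmt1 at -0.21 (-0.43 to 0.01), Mthfd1l at -0.09 (-0.22 to 0.03), Psph at -0.08 (-0.19 to 0.03), Slc3a2 at -0.05 (-0.12 to 0.02) and Mthfd1 at 0.06 (-0.06 to 0.19) a difference was not detectable at this depth. The call of Slc7a5 was lost with all deposited barcodes, at -0.48, and with 5 CPM added, at -0.47.

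**Figure D2:**
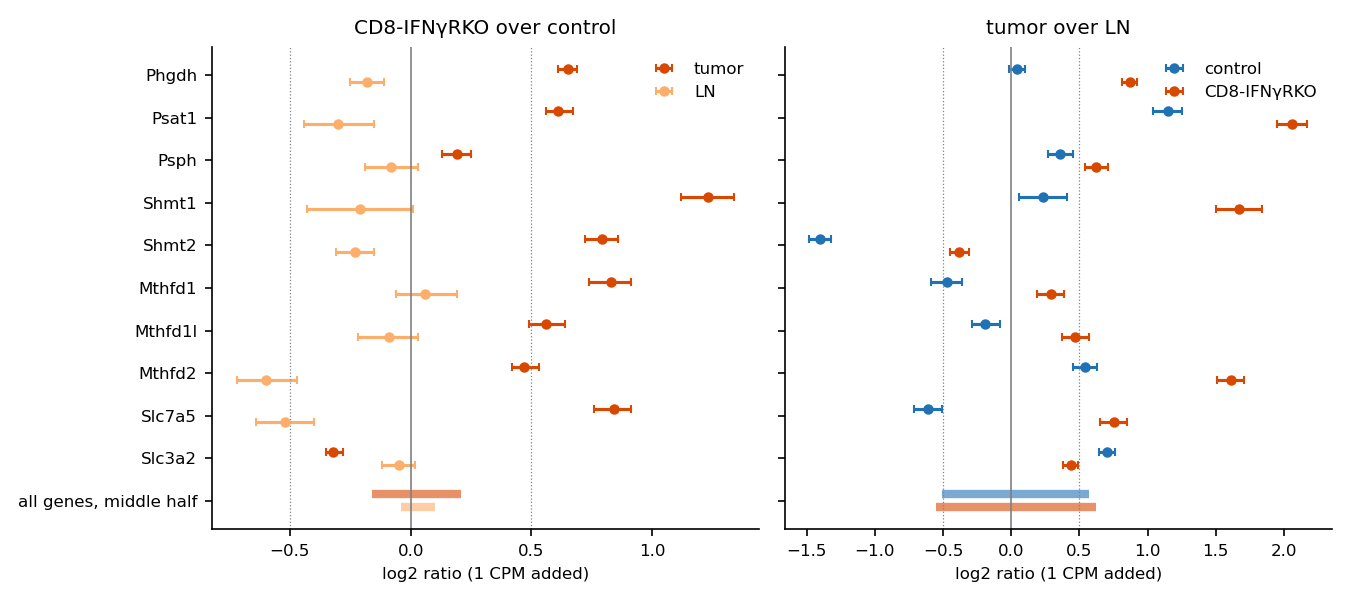
Points are log2 ratios of CPM (1 CPM added) of each gene with 95% counting intervals, for CD8-IFNγRKO over control on the left and tumor over LN on the right; the thick bars span the quartiles of all genes tested and dotted lines mark 0.5. In the left panel the tumor points lie right of 0 for every gene but Slc3a2, and the LN points lie at or left of 0 for every gene but Mthfd1.

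Tissues were compared next, within each genotype. The 4 comparisons share libraries, so each is given with its own values only. In control cells, Psat1 at 1.15 (1.04 to 1.25), Slc3a2 at 0.70 (0.64 to 0.76) and Mthfd2 at 0.54 (0.45 to 0.63) were past 0.5 in the tumor direction, as were 27.4% of 9029 genes. Shmt2 at -1.40 (-1.48 to -1.32), or 2.64-fold lower in tumor, and Slc7a5 at -0.61 (-0.71 to -0.51) were past 0.5 in the LN direction, as were 25.2% of genes. The share of members past the limit was thus near that of all genes, and the members' median was 0.14 beside 0.02 over all genes. In CD8-IFNγRKO cells 6 members were past 0.5 in the tumor direction, against 29.0% of 9069 genes, and none in the LN direction, against 27.0%. These were Psat1 at 2.06 (1.95 to 2.17), Shmt1 at 1.67 (3.18-fold), Mthfd2 at 1.61 (1.51 to 1.71), Phgdh at 0.87 (0.81 to 0.92), Slc7a5 at 0.75 (0.65 to 0.85) and Psph at 0.62 (0.54 to 0.71). Shmt2 at -0.38 (-0.45 to -0.31) was the single member below 0, and the members' median was 0.69 beside 0.02. Of all genes tested, 51.0% were above 0.

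Tissue ratios depended on what was counted in the library size. Leaving TCR, heat shock, ribosomal and mitochondrial genes out of the total lowered the median of all genes to -0.27 in control and -0.24 in CD8-IFNγRKO cells, and the split of genes past the limit went to 19.6% higher and 38.5% lower in control and 21.3% and 38.0% in CD8-IFNγRKO cells. Under it the members' median in control cells turned to -0.14, still above that of all genes, and Phgdh (0.04 to -0.24) and Shmt1 (0.23 to -0.03) changed sign. These 2 also changed sign in control cells with each cell weighted equally (-0.15 and -0.21) and with common weights of the proliferation classes (-0.52 and -0.80), and so did Mthfd1 in CD8-IFNγRKO cells with the latter (0.29 to -0.07). Psat1, Mthfd2 and Slc3a2 stayed on the tumor side and Shmt2 on the LN side in both genotypes under every alternative run, the lowest value of Mthfd2 in control being 0.04. The control median was -0.18 with equal cell weights and -0.44 with common class weights.

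Members were then followed across cells by their number of proliferation UMIs, in classes of 0, 1 to 2, 3 to 5, and 6 or more. The list holds genes of DNA replication and mitosis such as Mki67, Top2a, Mcm5 and Rrm2, and no member. In control tumor 8 members were past 0.5 in cells with 6 or more over cells with 0, against 15.5% of 8827 genes, and in CD8-IFNγRKO tumor 8 members were, against 14.4% of 8847 genes. Their medians were 1.09 and 0.85, beside -0.02 and -0.04 over all genes.

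Shmt1 had the steepest gradient. In control tumor it went from 1.91 CPM with 0 proliferation UMIs to 7.84, 22.0 and 25.7 CPM in the next classes, a log2 ratio of 3.20 (2.83 to 3.54) between the ends. In CD8-IFNγRKO tumor it went from 7.37 to 19.7, 38.2 and 36.5 CPM, a log2 ratio of 2.16 (1.88 to 2.45). Most of the distance was covered below 6 UMIs in both libraries. Phgdh went from 67.4 to 208 CPM in control and from 95.9 to 236 CPM in CD8-IFNγRKO tumor, Psat1 from 35.8 to 102 and from 47.9 to 116 CPM, and Mthfd1 from 13.1 to 35.9 and from 19.3 to 49.2 CPM. Psph was nearly flat, at 52.1 to 65.5 CPM and 52.5 to 68.9 CPM. Slc3a2 ran the opposite way, from 192 down to 136 CPM in control (-0.49, -0.58 to -0.41) and from 169 down to 119 CPM in CD8-IFNγRKO tumor (-0.50, -0.58 to -0.42).

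In the LN only 20 cells of each library had 6 or more proliferation UMIs. In these, Psat1 had 104 CPM in control and 76.1 CPM in CD8-IFNγRKO cells, against 26.6 and 19.9 CPM with none, log2 ratios of 1.93 (1.35 to 2.45) and 1.88 (1.15 to 2.53). Mthfd2 went from 40.1 to 132 CPM in control (1.69, 1.19 to 2.16) and from 26.7 to 68.1 CPM in CD8-IFNγRKO LN, and Phgdh had ratios of 1.08 (0.73 to 1.41) and 0.78 (0.34 to 1.20). Slc3a2 did not differ beyond counting error between these LN classes, at -0.08 (-0.67 to 0.45) and -0.02 (-0.65 to 0.56). Shmt2 had 0.62 (0.13 to 1.08) in control and -0.13 (-0.90 to 0.55) in CD8-IFNγRKO. Mthfd1 had 1.06 (0.35 to 1.69) and -0.08 (-1.24 to 0.89). In all, 6 members in control and 7 in CD8-IFNγRKO were past 0.5 higher, against 27.5% and 29.3% of genes. None was past it lower, against 25.2% and 23.2%. Median UMIs per cell moved with the classes, from 5692 to 12758 in control tumor and from 4099.5 to 14325 in control LN between the ends, and the part of depth in these gradients was not tested.

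**Figure D3:**
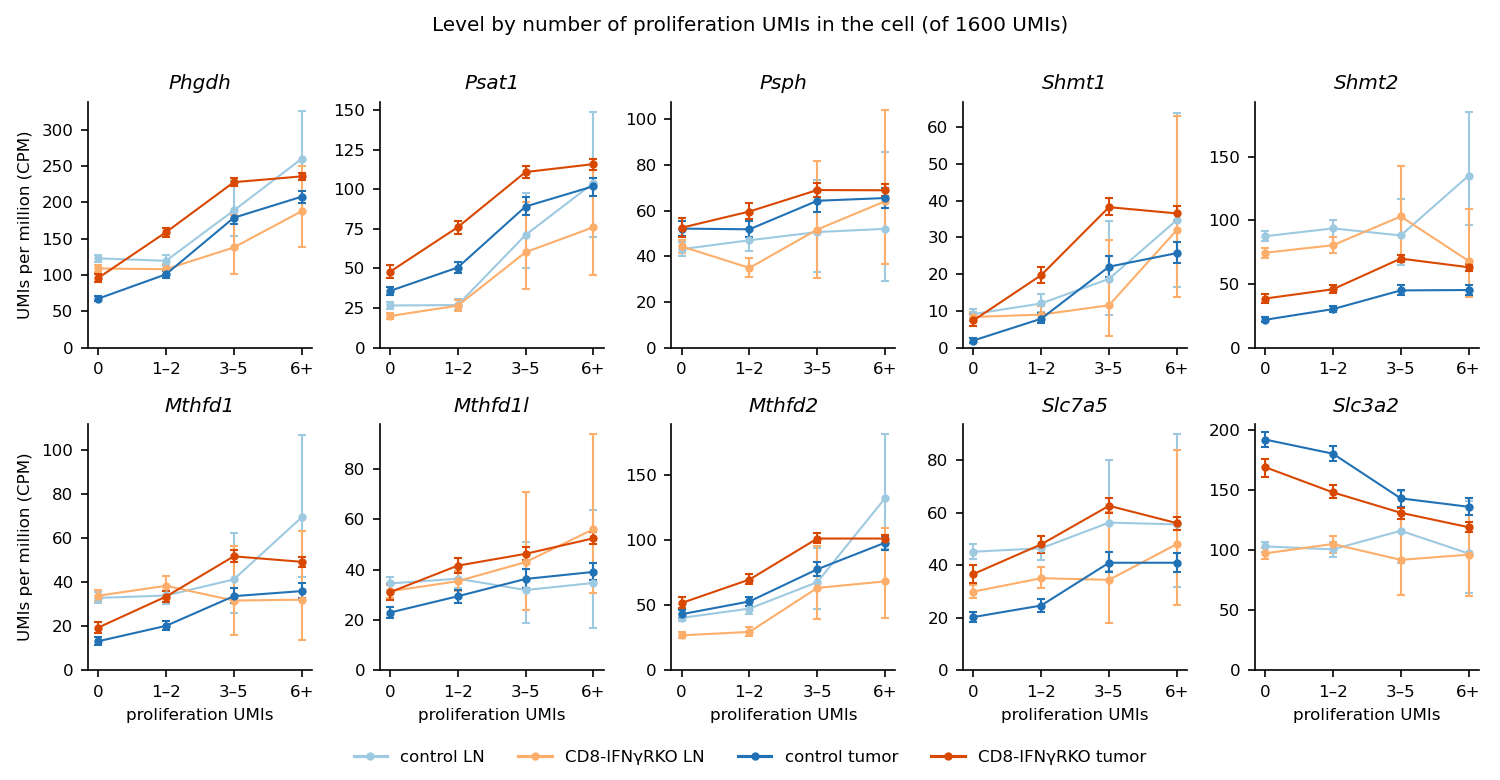
Lines join the CPM of each gene over the 4 classes of proliferation UMIs per cell, for the 4 libraries (colors), with 95% Poisson intervals. Levels climb with proliferation UMIs for most genes in the tumor libraries, Slc3a2 falls there from 192 to 136 CPM in control, and wide LN intervals at the right reflect 20 cells.

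The genotypes were compared within each class. A cell with 0 proliferation UMIs after thinning can still hold some among its other UMIs. Classes were also set from all UMIs, by each cell's count scaled to the thinned depth and rounded. Their class of 0 held 2529 in place of 2758 control TILs and 1350 in place of 1717 CD8-IFNγRKO TILs. Because of the rounding, this class can still hold cells with proliferation UMIs. Genotype ratios within those classes were not computed. Among TILs with 0 proliferation UMIs, whose median depths were close (5692 and 5743 UMIs per cell), 5 members were past 0.5 higher in CD8-IFNγRKO, against 6.20% of 8716 genes. They were Shmt1 at 1.52 (1.09 to 1.94), Slc7a5 at 0.83 (0.63 to 1.02), Shmt2 at 0.79 (0.60 to 0.98), Mthfd1 at 0.52 (0.27 to 0.77) and Phgdh at 0.50 (0.39 to 0.62). Shmt1, at 1.91 and 7.37 CPM, was here below the mean of 5 CPM asked of those genes. Psph, at 0.01 (-0.13 to 0.15), did not differ beyond counting error. The make-up of this class differed between the genotypes. Cells with a Tcf7 UMI and no Havcr2 UMI made up 3.81% of it in control and 14.6% in CD8-IFNγRKO. Cells with a Havcr2 UMI and no Tcf7 UMI made up 35.0% and 21.1%. The part of this mix in the ratios was not tested. With 1 to 2 UMIs 6 members were past 0.5, against 6.27% of genes, and with 3 to 5 UMIs 4 were, against 3.54%. With 6 or more UMIs no member was past 0.5, where 2.56% of genes were. The members' median went from 0.46 and 0.58 in the low classes to 0.37 and 0.30 in the high ones. Shmt1 showed this most, at 1.52, 1.23, 0.77 and 0.49 (0.32 to 0.67), while Mthfd1l stayed between 0.34 and 0.49. Mthfd2 at 0.04 (-0.05 to 0.14) and Psph at 0.07 (-0.04 to 0.19) had intervals across 0 among cells with 6 or more. Slc3a2 was lower in CD8-IFNγRKO in each of the classes, at -0.18, -0.28, -0.13 and -0.19.

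Among LN cells with 0 proliferation UMIs, Slc7a5 went from 45.1 CPM in control to 29.9 CPM in CD8-IFNγRKO (-0.58, -0.72 to -0.43) and Mthfd2 from 40.1 to 26.7 CPM (-0.57, -0.72 to -0.41), close to their values over all LN cells. The tissue ratios of this class stood lower than those over all cells for every member but Slc3a2, in both genotypes. In control cells the members' median of tumor over LN was -0.71, with Shmt2 at -1.96 (-2.11 to -1.81), Shmt1 at -1.79 (-2.16 to -1.42) and Mthfd1 at -1.26 (-1.46 to -1.06), while Slc3a2 at 0.89 (0.81 to 0.97) and Psat1 at 0.41 (0.25 to 0.57) were higher in tumor. In CD8-IFNγRKO cells the median was 0.11, with Psat1 at 1.22 (1.04 to 1.41), Mthfd2 at 0.92 (0.76 to 1.09) and Shmt2 at -0.94 (-1.09 to -0.79) at the ends. Slc7a5 had opposite signs, -1.12 (-1.29 to -0.96) in control and 0.28 (0.10 to 0.46) in CD8-IFNγRKO cells, as it had over all cells, and that difference was not tested.

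Cells were also classed by Tcf7, the transcription factor gene of stem-like T cells, and Havcr2, which encodes the exhaustion marker Tim-3. After thinning, cells with a Tcf7 UMI and no Havcr2 UMI numbered 162 in control and 410 in CD8-IFNγRKO tumor, and cells with a Havcr2 UMI and no Tcf7 UMI 2258 and 2126. Psat1 was higher in the Havcr2 cells in both genotypes, at 60.9 against 22.0 CPM in control (log2 ratio 1.43, 0.77 to 2.17) and 98.4 against 38.3 CPM in CD8-IFNγRKO (1.34, 1.02 to 1.67). Mthfd2 shared that direction at 0.63 (0.13 to 1.18) and 0.72 (0.45 to 1.00), as did Psph at 0.96 (0.38 to 1.61) and 0.50 (0.21 to 0.81). Shmt2 showed no difference beyond counting error in either, at -0.41 (-0.92 to 0.14) and 0.07 (-0.21 to 0.36). In all, 3 members were past 0.5 in control, against 22.3% of genes, and 6 in CD8-IFNγRKO, against 20.7%. Among cells with 0 proliferation UMIs, Psat1 kept its direction at 1.07 (0.47 to 1.72) in CD8-IFNγRKO and 3.58 (1.49 to 5.25) in control, where the Tcf7 cells held 1 UMI of it, whereas Phgdh went to -0.11 (-0.44 to 0.23) and -0.16 (-0.68 to 0.40). In control, Shmt1 at -2.20 (-3.54 to -0.50) and Mthfd1 at -1.15 (-1.96 to -0.23) were lower in these Havcr2 cells, and in CD8-IFNγRKO they stood at -0.13 (-1.21 to 1.03) and -0.17 (-0.87 to 0.56). The members' medians among cells with 0 proliferation UMIs were -0.19 in control and 0.25 in CD8-IFNγRKO. Between genotypes, the members' median was 0.71 in Havcr2 cells and 0.42 in Tcf7 cells, and in the smaller Tcf7 class the interval of Shmt1 was -0.81 to 1.61.

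In the LN, cells were classed by Ccr7, a homing receptor of naive cells, and Ccl5, a chemokine of memory and effector cells. Cells with a Ccl5 UMI and no Ccr7 UMI numbered 246 in control and 220 in CD8-IFNγRKO. Over cells with Ccr7 alone, the members' medians were 0.15 and 0.08, beside -0.07 and -0.10 over all genes. In each genotype 1 member was past 0.5 higher, against 6.41% of genes. In CD8-IFNγRKO 1 was past it lower, against 12.7%. Psat1 was higher in the Ccl5 cells of control, at 0.53 (0.11 to 0.94), and stood at 0.12 (-0.44 to 0.64) in CD8-IFNγRKO. Slc7a5 was higher in the Ccl5 cells, at 55.3 against 45.0 CPM in control (0.29, -0.05 to 0.62) and 43.0 against 29.0 CPM in CD8-IFNγRKO (0.55, 0.14 to 0.95), with the control interval across 0. Mthfd2 had opposite signs, with the control interval across 0, 51.3 against 41.4 CPM in control (0.30, -0.05 to 0.64) and 16.1 against 26.8 CPM in CD8-IFNγRKO (-0.70, -1.35 to -0.10).

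T cell receptor libraries gave clones in the tumors, a clone being cells with the same alpha and beta chains. Both chains were found in 4284 control and 5937 CD8-IFNγRKO TILs. Among clones of 10 or more cells, which held 3900 and 5412 cells, 7 members were past 0.5 higher in CD8-IFNγRKO, against 8.46% of genes, with a median of 0.67. Among clones of 2 to 9 cells, 201 and 161 cells in all, 8 members were, against 14.7%, with a median of 0.80. Among cells alone in their clone, 183 and 364 cells, none was, against 12.0%, and the median was -0.15. In these single cells the interval of each member reached across 0, from Phgdh at 0.28 (-0.05 to 0.61) to Shmt1 at -0.64, from 21.9 to 13.7 CPM. Cells alone in their clone were rich in Tcf7, at 353 CPM in control and 473 CPM in CD8-IFNγRKO, against 4.14 and 4.34 CPM in clones of 10 or more cells.

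Within control tumor, Shmt2 and Mthfd1 were lower in clones of 10 or more cells than in single cells, at 30.7 against 63.6 CPM (-1.03, -1.40 to -0.62) and 22.3 against 42.7 CPM (-0.91, -1.37 to -0.42). Within CD8-IFNγRKO tumor the same genes stood at 59.4 against 57.8 CPM (0.04, -0.24 to 0.33) and 44.9 against 31.5 CPM (0.50, 0.13 to 0.90). Among cells with 0 proliferation UMIs both genes were lower in the large clones of both genotypes, Shmt2 at -0.90 (-1.60 to -0.12) in control and -0.51 (-0.96 to -0.03) in CD8-IFNγRKO, and Mthfd1 at -1.01 (-1.87 to -0.03) and -0.81 (-1.38 to -0.20). Of all genes tested, 21.3% and 19.4% were past 0.5 lower there. Psat1 was higher in the large clones of both, at 65.9 against 46.0 CPM (0.51, 0.08 to 0.97) in control and 103 against 37.2 CPM (1.45, 1.10 to 1.81) in CD8-IFNγRKO.

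Levels were also set side by side over the large clones of each tumor library. Clones of one library share its preparation, were not assigned to mice and are no replicates of a genotype. The counts of clones describe these clones only, and the share of all genes with like counts, short of all 13, was not computed. There were 6 control and 13 CD8-IFNγRKO clones of 100 or more cells. Shmt1 ranged from 6.39 to 14.1 CPM (median 13.0) over the control clones and from 3.19 to 43.0 CPM (median 29.4) over the CD8-IFNγRKO clones, and 11 of the 13 lay above every control clone. Slc7a5 ranged from 26.8 to 34.9 CPM (median 27.7) and from 27.6 to 78.5 CPM (median 51.6), with 12 of 13 above. For Phgdh (95.1 to 140.4 CPM against 128 to 239), Shmt2 (21.1 to 35.2 against 19.2 to 78.1), Mthfd1 (14.8 to 30.1 against 21.3 to 56.0) and Mthfd1l (26.4 to 37.3 against 12.8 to 55.4), 11 of 13 lay above. Psat1 and Mthfd2 had 10 of 13 above, Psph had 2, and Slc3a2 had 10 of 13 below every control clone, at 117 to 187 CPM against 150.3 to 225.

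No member separated the clones of the genotypes completely, as 1.21% of 8834 genes did in the higher and 1.10% in the lower direction. The same CD8-IFNγRKO clone, the 8th by size with 149 cells, was the lowest of the 13 for Phgdh, Psat1, Psph, Shmt1, Shmt2, Mthfd1l and Mthfd2, and it had the highest Slc3a2, 187 CPM. Its Shmt1 level of 3.19 CPM rested on 2 UMIs. In that clone 10.3% of cells had 6 or more proliferation UMIs, in the other CD8-IFNγRKO clones 20.5% to 39.6%, and in the control clones 9.30% to 18.2%. The 12th CD8-IFNγRKO clone, with 32.3% of such cells, lay within the control range for Phgdh (139.9 CPM), Shmt1 (12.2 CPM) and Shmt2 (31.7 CPM). The 6th, with 29.6%, was the lowest of the 13 for Mthfd1 and Slc7a5. Cells with 0 proliferation UMIs made up 45.5% of the 8th clone, 30.1% of the 6th and 27.7% of the 12th. In the other CD8-IFNγRKO clones they made up 9.52% to 23.7%, and in the control clones 37.0% to 53.5%. A link between clone levels and proliferation UMIs was not tested.

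**Figure D4:**
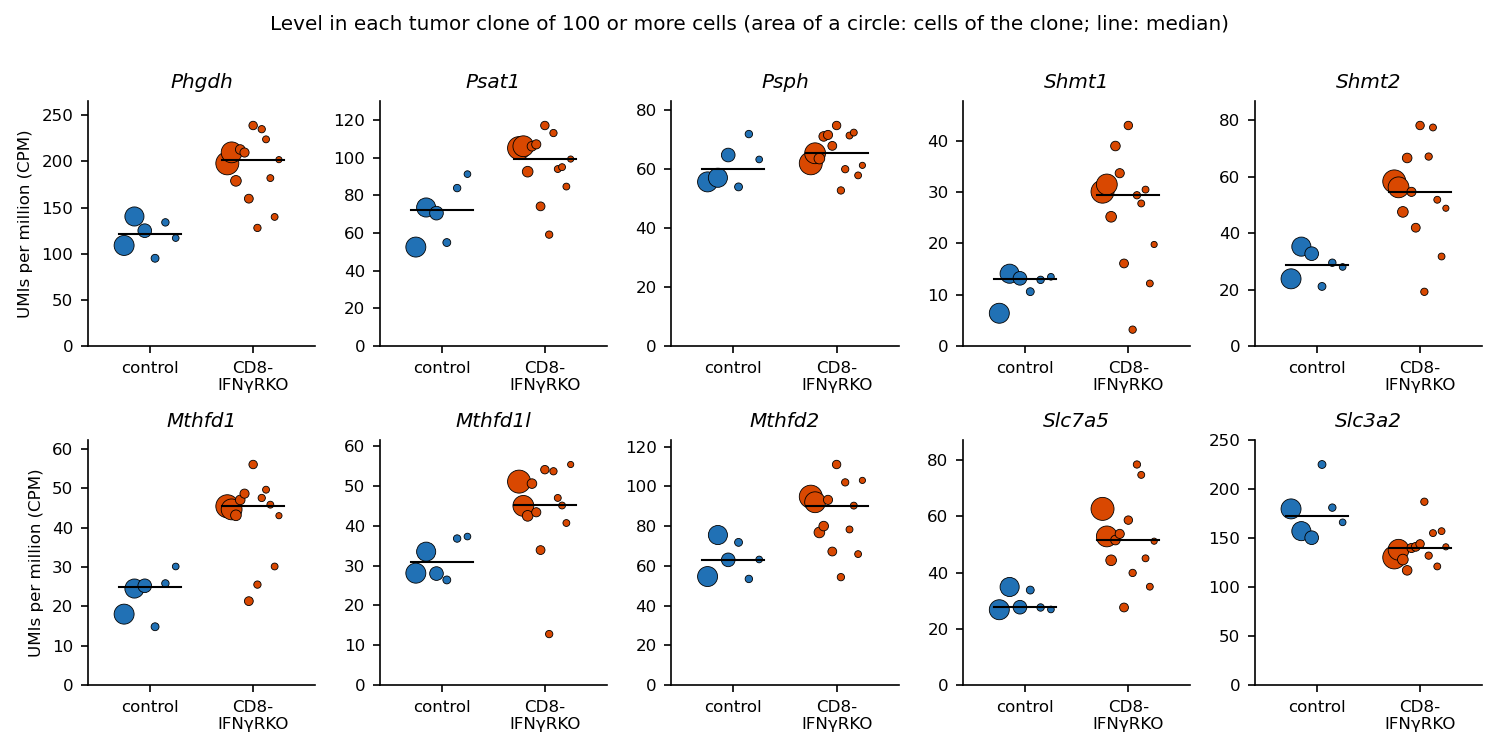
Each circle is the CPM of a gene in 1 tumor clone of 100 or more cells (6 control, 13 CD8-IFNγRKO), its area in proportion to the number of cells, and the line is the median. Most CD8-IFNγRKO clones lie above the control clones for every gene but Psph and Slc3a2, and 1 small CD8-IFNγRKO clone lies low for most genes.

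To see which members moved together, levels were set side by side over 16 points, the 4 libraries by 4 proliferation classes. The points share libraries and rise in depth with the class, so the correlations of log2(CPM + 1) are descriptions without a test. Phgdh and Shmt1 were the closest pair (Pearson r 0.97), followed by Psat1 and Mthfd2 (0.95). Against the mean of the other 9 members, r was 0.98 for Phgdh, 0.96 for Shmt1, 0.84 for Slc7a5, 0.83 for Mthfd2, 0.78 for Psat1, 0.77 for Mthfd1, 0.71 for Mthfd1l and 0.61 for Psph. Shmt2 followed the others weakly (0.32) and Slc3a2 inversely (-0.40). The most opposed pair was Shmt2 and Slc3a2 (-0.92). Shmt2 was highest in the LN and Slc3a2 in TILs with 0 proliferation UMIs. The exchanger chains Slc7a5 and Slc3a2 had r of -0.46. Of 5592 other genes, those whose levels were most like the members' mean were Nasp, a histone chaperone (0.97), Pold2 and Pold1, subunits of DNA polymerase delta (both 0.96), Pdap1 (0.96) and Ranbp1, a partner of the GTPase Ran (0.96). The proliferation list and TCR, mitochondrial and ribosomal protein genes were not among the 5592. The classes were themselves set by genes of DNA replication and mitosis, so likeness to replication genes is no separate result.

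**Figure D5:**
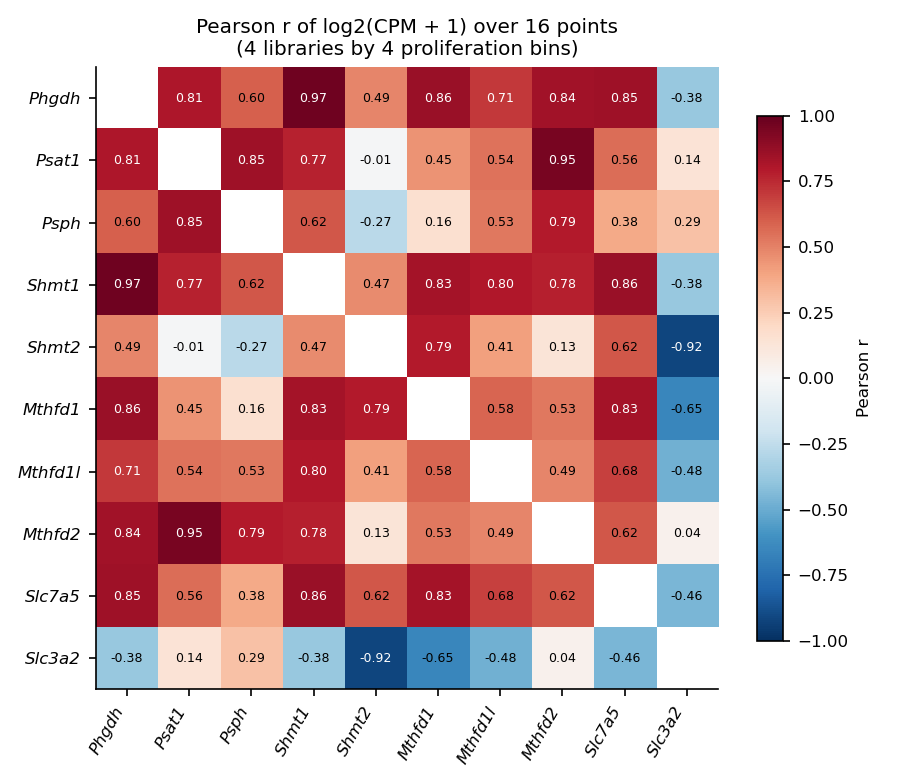
Cells give Pearson r of log2(CPM + 1) between 2 members over the 16 points of 4 libraries by 4 proliferation classes, red for positive and blue for negative. Phgdh and Shmt1 are red against Psat1, Mthfd1, Mthfd2 and Slc7a5 (0.77 to 0.86). Psat1, Psph and Mthfd2 are red against each other (0.79 to 0.95), and the Slc3a2 row is blue against Shmt2 (-0.92).

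Other genes of the pathway were read from lists fixed by function, with earlier results of these data known. Of 12 genes of purine synthesis, which takes ring carbons from formyl-tetrahydrofolate, 7 were past 0.5 higher in CD8-IFNγRKO tumor, against 7.45% of all genes tested, and the list's median was 0.53, beside 0.01 over all genes. The shares of the lists that follow are to be read against the same 7.45%. Pfas went from 6.34 CPM in control to 12.0 CPM in CD8-IFNγRKO tumor (0.83, 0.68 to 0.98) and Gart, which uses the formyl group, from 25.5 to 45.2 CPM (0.80, 0.72 to 0.88). Adss (-0.07, -0.12 to -0.02) and Impdh1 (0.04, -0.02 to 0.10) had the lowest ratios, whereas Impdh2, which catalyses the same step as Impdh1 and is given for that reason after its value was seen, had 115 and 200.4 CPM (0.80, 0.76 to 0.84). Of 14 folate cycle genes tested, 3 were past 0.5 higher and the median was 0.21. The folate carrier Slc19a1 had 10.1 CPM in control and 16.1 CPM in CD8-IFNγRKO tumor (0.63, 0.50 to 0.76). Ggh, which trims folate polyglutamates, was lower, 74.1 and 57.1 CPM (-0.37, -0.43 to -0.31), as was Gldc of the glycine cleavage system, 58.3 and 48.3 CPM (-0.27, -0.33 to -0.20). Gldc was near absent from the LN, at 0.0668 CPM in control and 0.104 CPM in CD8-IFNγRKO.

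Of 8 methionine and polyamine genes, 2 were past 0.5: Srm, spermidine synthase, at 44.3 and 87.7 CPM (0.97, 0.91 to 1.03) and Ahcy, which clears S-adenosylhomocysteine, at 76.1 and 125 CPM (0.71, 0.66 to 0.76). The median was 0.09, and Mat2b (-0.26) and Odc1 (-0.08) were the lowest. Of 12 other carrier genes tested, 2 were past 0.5 with a median of 0.17. They were Slc16a10 at 0.82 (0.67 to 0.96) and Slc43a3 at 0.81 (0.70 to 0.92). The glutamine carrier Slc1a5 had 163 and 159 CPM (-0.04, -0.08 to 0.00) and Slc38a9 had 6.99 and 6.43 CPM (-0.11, -0.27 to 0.05). Of 7 genes tested among Atf4 and its targets, a factor known to induce Phgdh, Psat1, Psph, Shmt2 and Mthfd2, 1 was past 0.5. This was Asns, asparagine synthetase, at 6.86 and 14.2 CPM (0.95, 0.81 to 1.09), then came Gars at 0.39 (0.35 to 0.43), whereas Atf4 RNA itself had 89.1 and 92.1 CPM (0.05, 0.00 to 0.10) and Sars a ratio of 0.15 (0.11 to 0.20). The list genes below the 5 CPM mean are given after their values were seen. Trib3 was at 0.90 (0.67 to 1.10), Chac1 at 0.86 (0.62 to 1.08), Pycr1 at 0.45 (0.22 to 0.64) and Nupr1 at 0.29 (0.08 to 0.44). Atf5 at -0.13 (-0.31 to 0.05) and Sesn2 at -0.17 (-0.36 to 0.01) had intervals across 0. Of 8 regulators tested, 1 was past 0.5: Myc, a transcription factor of growth genes, from 42.7 CPM in control tumor (1.14, 1.07 to 1.20), with 208 and 201 CPM in the LN, next to Eif2ak4 at 0.04 and Hif1a and Rheb, both at -0.28. Of the genes of these lists that reached the 5 CPM mean, none was past 0.5 in the lower direction in the tumor, and none in either direction in the LN. Over all genes tested, 5.09% were past it lower in the tumor, and 0.276% higher and 0.460% lower in the LN. The LN counts were thus near those of all genes.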

How the data were processed

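The authors aligned reads of a 5′ 10x Genomics library to mm10 with Cell Ranger 6.0.0 and deposited raw UMI counts per gene and barcode, for 4 libraries, and TCR contigs for both tumor libraries. After the study's filters, a barcode was kept if it had between 200 and 6000 genes, if mitochondrial genes held no more than 3% and any single gene no more than 20% of its UMIs, and if Cd2, Cd8a and Cd8b1 each had 1 UMI or more, a limit set here. The study's removal of a macrophage cluster was not repeated, and cells with 3 or more macrophage UMIs were left out as an alternative. No doublet caller was run. Counts were summed per library or class, and CPM were given with exact Poisson intervals and log2 ratios (1 CPM added) with conditional binomial intervals, at 95%, tested on simulated data. Genes needed a mean of 5 CPM over the libraries compared. For classes, each cell was thinned to 1600 UMIs (seed 11), which left out 41 to 701 cells of a library, while CPM used all UMIs. Clones needed 1 alpha and 1 beta chain. Pathway genes were named by the 2 highest and 2 lowest tumor ratios of a list, and similar genes by the 5 highest r among genes with a mean of 20 CPM. The values of 1 gene that this rule names are not reported here. The clones of 100 or more cells were examined after seeing the data. The members and lists were chosen with earlier results of these data known. Promoters came from RefSeq (GRCm38.p6). Python 3.11.15, numpy 2.4.6, scipy 1.17.1 and pandas 2.3.3 were used.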

Additional observations from a re-analysis of the deposited data

Results flagged for a closer look

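For 5 members the log2 ratio of CD8-IFNγRKO over control had opposite signs in tumor and LN, with both counting intervals off 0. The share of all genes that met this rule, or the one for tissues below, was not computed. The ratios in tumor and LN were 0.65 and -0.18 for Phgdh, 0.61 and -0.30 for Psat1, 0.79 and -0.23 for Shmt2, 0.47 and -0.60 for Mthfd2 and 0.84 and -0.52 for Slc7a5. For 3 members the ratio of tumor over LN had opposite signs in the genotypes. In CD8-IFNγRKO and control cells it was 0.29 and -0.47 for Mthfd1, 0.47 and -0.19 for Mthfd1l and 0.75 and -0.61 for Slc7a5, which thus met both descriptions. With common weights of the proliferation classes the tissue ratios of CD8-IFNγRKO and control cells were -0.07 and -0.96 for Mthfd1, 0.05 and -0.36 for Mthfd1l and 0.41 and -0.92 for Slc7a5, so that Mthfd1 no longer had opposite signs. With 1 library per tissue and genotype these differences were not tested.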

How the results depend on the processing

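With common weights of the proliferation classes, the members' median for CD8-IFNγRKO over control in tumor was 0.40. Then 4 members were past 0.5 higher, against 3.46% of genes. For tumor over LN the median was -0.44 in control cells, with 1 member higher (24.3% of genes) and 5 lower (26.0%). In CD8-IFNγRKO cells it was 0.38, with 4 members higher (22.8% of genes) and 1 lower (25.1%). With TCR, heat shock, ribosomal and mitochondrial genes left out of the library size, tumor over LN had a median of -0.14 in control cells. There 1 member was higher (19.6% of genes). In CD8-IFNγRKO cells the median was 0.43, with 1 member lower (38.0% of genes). With each cell weighted equally, tumor over LN had a median of -0.18 in control cells. In CD8-IFNγRKO cells 1 member was then lower (24.5% of genes). In the LN, 1 member in place of 2 was past 0.5 lower in CD8-IFNγRKO with all deposited barcodes and with 5 CPM added. The shares of genes were then 0.448% and 0.207%. Proliferation classes were also set from all UMIs, by counts scaled to the thinned depth and rounded. In CD8-IFNγRKO tumor, the ratio of 6 or more over 0 then had a median of 1.04 in place of 0.85. The cause was not tested where none follows from the setting. No value past 0.5 changed sign, and 129 values of medians and counts stayed within their counting interval or within 1.5 times. Of single-gene values 316 stayed within their interval and 74 moved beyond it. Leaving out the largest clones was chosen after seeing the data. No paired analysis was possible because each group has 1 library and no replicate number. Depth limits the classes of few cells, among them the LN cells with 6 or more proliferation UMIs, the Tcf7 cells of the control tumor and the single-cell clones.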
